A study of Mus musculus with 15 samples.

Results

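The mouse Hox genes studied here are the 39 rows of the expression table whose symbol is Hoxa, Hoxb, Hoxc or Hoxd followed by a paralog number, out of 25030 gene symbols in all. They comprise 11 Hoxa genes on chromosome 6, 10 Hoxb genes on chromosome 11, 9 Hoxc genes on chromosome 15 and 9 Hoxd genes on chromosome 2. They were measured by bulk RNA sequencing of total RNA from 3 microdissected kidney zones, the inner medulla (IM), the outer medulla (OM) and the cortex, with 5 libraries per zone. All 15 libraries came from wild type male mice whose strain is labelled C56BL/6N, with no treatment, age or time given in the labels. Whether each library of a zone is from its own mouse is not stated in the labels, so all p-values measure the spread between libraries, which may be technical.

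Hox genes encode homeodomain transcription factors and lie in clusters that arose by duplication of an ancestral cluster, so that genes with the same paralog number in different clusters are close relatives. Genes with low paralog numbers are switched on earliest and furthest forward along the body axis of the embryo, and genes with high numbers later and further back. In the kidney, the paralog 11 genes act in the embryo with Eya1 and Pax2 to switch on Six2 and Gdnf, the signal that draws out the ureteric bud, and regulatory sequence of Hoxb7 is widely used to drive transgenes in the collecting duct lineage. Hox proteins bind DNA together with partners of the TALE class (PBX, MEIS and PKNOX proteins).

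The clusters also hold microRNA genes, and the 4 most abundant of the 6 rows listed for them are described here. Their mature sequences (RefSeq, GRCm38.p6) are shown because the members of each pair share a seed, printed in capitals (bases 2 to 8), although they lie in different clusters. The miR-10 pair differed by U12A, counted from 1 at the 5′ end of mmu-miR-10a-5p, and the miR-196 pair by A12C, counted in mmu-miR-196a-5p.
mmu-miR-10a-5p: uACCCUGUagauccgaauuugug
mmu-miR-10b-5p: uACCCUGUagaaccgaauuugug
mmu-miR-196a-5p: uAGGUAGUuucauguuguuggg
mmu-miR-196b-5p: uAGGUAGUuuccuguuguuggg
The first comes from Mir10a at chr11:96317186-96317208 (plus strand), between Hoxb5 and Hoxb4. The second comes from Mir10b at chr2:74726074-74726096 (plus strand), inside the annotated spans of Hoxd3 and Hoxd4. The third is given for Mir196a-1 at chr11:96265187-96265208 (plus strand), between Hoxb13 and Hoxb9, and the fourth for Mir196b at chr6:52230129-52230150 (minus strand), inside Hoxa9.

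Promoter sequences are shown for 4 members, the paralog 4 genes Hoxb4 and Hoxd4 and the paralog 11 genes Hoxa11 and Hoxd11, because both genes of each pair were several-fold higher in IM. Each is the 250 bases before a RefSeq start in GRCm38.p6, and for Hoxd11 the second of its 2 annotated starts is given. Capitals mark matches on either strand to the TATA box (TATAAA), the CCAAT box (letters CCAAT), the caudal type site (TTTATNG) or the PBX-HOX composite site (TGATNNAT). Read on the other strand, the TATA box shares most of its letters with the caudal type site, so a stretch can match both.
Hoxb4, chr11:96318017-96318266, plus strand: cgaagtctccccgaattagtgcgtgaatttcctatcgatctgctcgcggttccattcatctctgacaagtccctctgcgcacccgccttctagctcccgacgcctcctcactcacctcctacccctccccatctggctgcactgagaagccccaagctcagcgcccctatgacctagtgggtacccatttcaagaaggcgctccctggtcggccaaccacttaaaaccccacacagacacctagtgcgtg
Hoxd4, chr2:74721728-74721977, plus strand: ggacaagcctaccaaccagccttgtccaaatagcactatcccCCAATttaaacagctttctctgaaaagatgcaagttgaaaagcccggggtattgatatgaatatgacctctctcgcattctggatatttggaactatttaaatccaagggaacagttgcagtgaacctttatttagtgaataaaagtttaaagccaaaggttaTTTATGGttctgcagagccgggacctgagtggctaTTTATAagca
Hoxa11, chr6:52245811-52246060, minus strand: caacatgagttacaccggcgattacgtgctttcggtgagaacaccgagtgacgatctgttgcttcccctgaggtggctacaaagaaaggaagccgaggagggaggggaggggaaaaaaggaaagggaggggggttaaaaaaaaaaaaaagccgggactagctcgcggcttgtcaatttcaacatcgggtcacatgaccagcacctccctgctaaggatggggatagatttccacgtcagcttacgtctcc
Hoxd11, chr2:74682073-74682322, plus strand: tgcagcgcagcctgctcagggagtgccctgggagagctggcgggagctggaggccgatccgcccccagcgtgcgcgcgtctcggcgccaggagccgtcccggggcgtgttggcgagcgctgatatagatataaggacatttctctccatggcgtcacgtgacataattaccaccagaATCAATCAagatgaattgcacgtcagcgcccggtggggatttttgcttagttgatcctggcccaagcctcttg
Hoxd4 held 1 TATA box, 1 CCAAT box and 1 caudal type site, and the window shown for Hoxd11 held 1 PBX-HOX composite site. The window of the other Hoxd11 start, not shown, held 0 matches to each of the 4 motifs. The windows of Hoxb4 and Hoxa11 held none of the 4 motifs. Promoter entries were found for 22 of the 39 members, with 24 windows. Among these 24 windows, 4 held a TATA box (12.4% of all 32851 windows did), 14 a CCAAT box (33.8%), 2 a caudal type site (9.81%) and 4 a PBX-HOX composite site (7.68%). The Hox windows had a median of 12.5 CpG sites, against 6 over all windows, and a median GC content of 58.6%, against 52.4%. CpG sites numbered 14 in Hoxb4, 3 in Hoxd4, 13 in Hoxa11 and 20 in the window shown for Hoxd11. The window of the other Hoxd11 start had 2.

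Levels are given in TPM, transcripts per 1000000, a unit that divides reads by gene length and by the total of the library. Differences are in log2(TPM + 1) with their standard error (SE). They come from limma fitted to all 15 libraries over the 15052 genes that reached 1 TPM in 5 or more libraries, and a gene counted as called at a Benjamini-Hochberg adjusted p under 0.05 (two-sided). On this scale the typical gene was itself higher in IM: the median difference over all genes tested was 0.65 for IM minus cortex, 0.51 for IM minus OM and 0.11 for OM minus cortex. Each comparison is therefore also given after median-ratio scaling, which divides each library by its median ratio to the geometric mean of all libraries and brings these medians to 0.03, 0.03 and -0.03. The factors were 1.29 to 1.44 in IM, 0.915 to 0.932 in OM and 0.817 to 0.835 in cortex. Whole reads recovered from the TPM steps gave 16264486 to 25195553 reads per library.

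Of the 39 members, 30 passed the filter, and these were spread over all 4 clusters. Hoxa13, Hoxb13, Hoxc12 and Hoxd13 were listed at 0 TPM in every library. Hoxc13 was above 0 in OM library 5 alone, at 0.0434 TPM. Hoxb1 and Hoxd12 were above 0 in IM alone, with means of 0.0442 and 0.0321 TPM that rested on at most 2 reads per library. Hoxd1 averaged 0.435 ± 0.228 TPM in IM, 0.120 ± 0.159 TPM in OM and 0.0297 ± 0.0665 TPM in cortex (SD, n = 5 each). Hoxc11, the Hoxc member of paralog group 11, averaged 0.591 ± 0.209 TPM in IM, 0.776 ± 0.600 TPM in OM and 1.15 ± 0.431 TPM in cortex. It reached 1 TPM in 4 libraries and so fell just outside the filter. The paralog 13 genes, the last of each cluster, were thus at 0 or near 0 throughout the kidney.

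**Figure D1:**
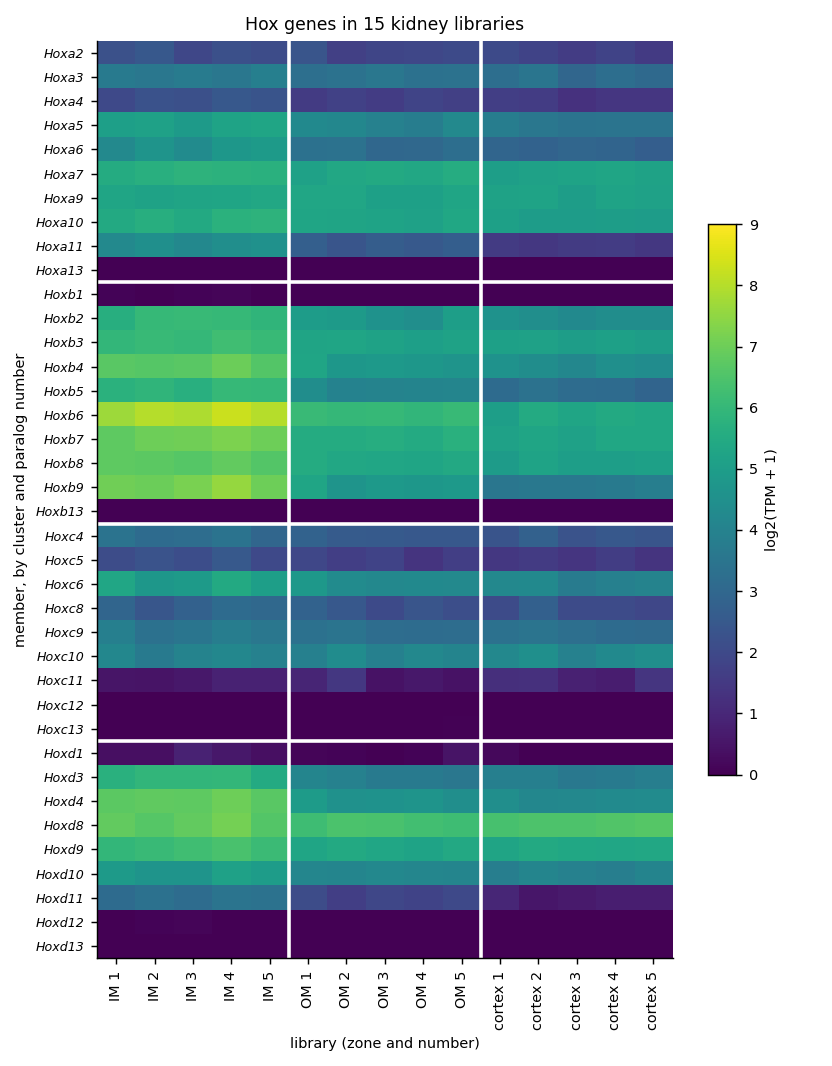
Level of the Hox genes reported by name (rows, ordered by cluster and paralog number) in the 15 libraries (columns, IM, OM and cortex), as log2(TPM + 1) on the colour scale. The brightest row is Hoxb6 in IM, where it averaged 251 TPM, and the paralog 13 rows are dark in every library.

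The kidney zones used the clusters unequally. Summed over a cluster, Hoxb transcripts averaged 917 ± 103 TPM in IM, 289 ± 21.9 TPM in OM and 203 ± 9.84 TPM in cortex (SD, n = 5 each), a ratio of 4.51 between IM and cortex. Hoxd summed to 386 ± 39.9 TPM in IM, 175 ± 7.63 TPM in OM and 177 ± 6.86 TPM in cortex, a ratio of 2.18. Hoxa summed to 237 ± 18.1 TPM in IM, 161 ± 8.05 TPM in OM and 134 ± 4.69 TPM in cortex, a ratio of 1.77. These clusters had no overlap between IM and cortex libraries, whereas Hoxc, at 79.6 ± 13.6 TPM in IM, 57.3 ± 6.62 TPM in OM and 53.8 ± 6.98 TPM in cortex, overlapped, with 63.5 TPM in the lowest IM library and 64.5 TPM in the highest cortex library. Ratios of TPM hold the shift of the typical gene, and sums over members were given no test. Within the Hox total, which is free of that shift, Hoxb made up 56.5% in IM, 42.3% in OM and 35.7% in cortex. Hoxd made up 23.9% in IM, 25.7% in OM and 31.2% in cortex, Hoxa 14.7%, 23.6% and 23.6%, and Hoxc 4.92%, 8.39% and 9.45% in the same order of zones. Because whole tissue was sequenced, fewer cells of a type and less RNA per cell cannot be told apart in any of these values.

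**Figure D2:**
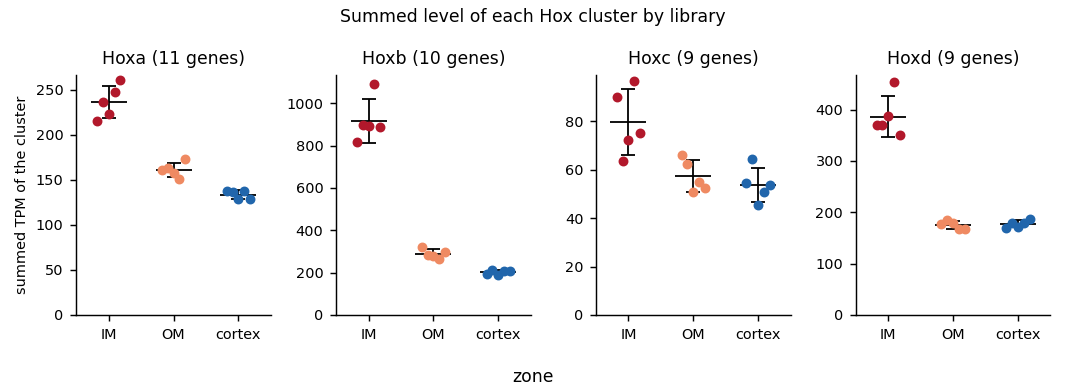
Summed TPM of each Hox cluster by zone, 1 point per library, with the mean and SD of the 5 libraries as lines; each panel has its own vertical axis, starting at 0. Hoxb averaged 917 TPM in IM, 289 TPM in OM and 203 TPM in cortex, while the Hoxd sums of OM and cortex lie together at 175 and 177 TPM.

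The most abundant Hox transcripts changed with the zone. In IM the order was Hoxb6 (251 TPM), Hoxb9 (144 TPM), Hoxb7 (129 TPM), Hoxd4 (111 TPM), Hoxd8 (110.9 TPM) and Hoxb4 (105 TPM). In OM it was Hoxd8 (78.8 TPM), Hoxb6 (64.0 TPM) and Hoxb7 (46.6 TPM), and in cortex Hoxd8 (90.4 TPM), Hoxd9 (40.0 TPM), Hoxb6 (39.5 TPM) and Hoxb7 (37.4 TPM). Neighbours in these orders mostly lay within their spread: Hoxd4 (SD 9.60), Hoxd8 (SD 16.8) and Hoxb4 (SD 12.3) in IM, and Hoxd9 (SD 2.27), Hoxb6 (SD 4.60) and Hoxb7 (SD 2.56) in cortex, overlapped. Members averaging 50 TPM or more numbered 13 in IM, 2 in OM and 1 in cortex.

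Comparing IM with cortex, 28 of the 30 tested members were higher, 1 was lower (Hoxc10) and 1 was not called (Hoxa9). The other 9 of the 39 members were not tested. Over all genes tested, 70.2% were called higher and 16.0% lower, so the share of Hox genes called higher, taken alone, is read against a high background. After median-ratio scaling, 17 members were higher and 5 lower (Hoxa7, Hoxa9, Hoxc9, Hoxc10 and Hoxd8), against 40.0% higher and 38.6% lower over all genes. All 5 IM libraries lay above all 5 cortex libraries for 25 of the 39 members (24 of them tested), and 0 members showed the opposite separation. The share of rows with IM above cortex was 64.2% over the genes tested and 42.6% over all 25030 rows, and that with IM below was 13.3% and 8.59%. The median difference over the 39 members was 0.73, against 0.17 over all 25030 rows. Over tested genes only it was 0.94 for the 30 members and 0.65 for all genes, and the filter lets in members through the zone where they are high. The tested members ranged from -0.27 to 3.51.

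By cluster, all 8 tested Hoxb genes were higher in IM than in cortex on both scales, with differences of 0.98 (Hoxb3) to 3.51 (Hoxb9) before scaling. Of the 6 tested Hoxd genes, 6 were higher before scaling, while 4 were higher and 1 lower (Hoxd8) after it. Of the 10 tested Hoxa genes, 9 were higher before scaling, while 4 were higher (Hoxa4, Hoxa5, Hoxa6 and Hoxa11) and 2 lower (Hoxa7 and Hoxa9) after it. Hoxc, with 5 higher and 1 lower of 6 tested genes, kept 1 higher (Hoxc6) and 2 lower (Hoxc9 and Hoxc10) after scaling. The medians over all members of a cluster, untested members included, were 1.69 for Hoxb, 0.82 for Hoxd, 0.53 for Hoxa and 0.36 for Hoxc.

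Members were also counted by position along the cluster. Of the 12 members with paralog numbers 1 to 4, 10 were tested and 10 were higher in IM than in cortex (6 after scaling, with 0 lower). Of the 11 members numbered 5 to 8, all were tested and 11 were higher (7 higher and 2 lower after scaling). Of the 16 members numbered 9 to 13, 9 were tested, with 7 higher and 1 lower (4 higher and 3 lower after scaling). The last class held the widest range: Hoxb9 (3.51), Hoxa11 (2.86) and Hoxd11 (2.58) were among the 5 largest differences of the tested members, together with Hoxb5 (2.71) and Hoxb6 (2.63), while Hoxc10 (-0.27) and Hoxa9 (0.12) were the smallest.

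**Figure D3:**
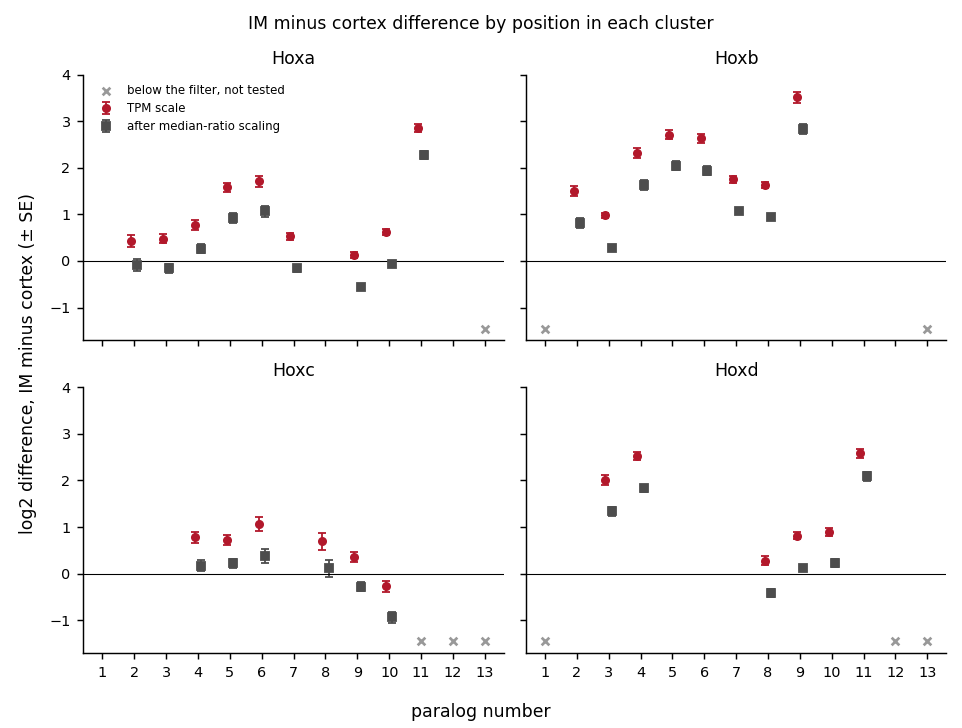
IM minus cortex difference in log2(TPM + 1) for each member reported by name against its paralog number, 1 panel per cluster; circles give the TPM scale, squares the values after median-ratio scaling, bars ± SE, and crosses mark members below the filter. All Hoxb circles and squares lie above 0, whereas in Hoxa, Hoxc and Hoxd some squares lie below 0 (Hoxa9 at -0.56, Hoxc10 at -0.93, Hoxd8 at -0.41).

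Hoxb9, a gene known for its role in the pattern of the ribs, had the largest difference in log2(TPM + 1). The ratio of IM to cortex means was larger for Hoxd11, at 13.4-fold. Its cortex values lay below the 1 that is added to TPM before the log. Hoxb9 had 132, 125, 143, 192 and 127 TPM in IM libraries 1 to 5, 37.8, 24.4, 28.0, 26.4 and 28.0 TPM in OM libraries 1 to 5 and 10.5, 11.04, 11.1, 11.6 and 13.5 TPM in cortex libraries 1 to 5. The 3 zones did not overlap, and IM library 4 and OM library 1 were the highest of their zones. The IM mean was 12.4-fold that of cortex, with a log2 difference of 3.51 (SE 0.12, limma adjusted p = 5.54e-13; 2.83 after scaling, adjusted p = 6.26e-12).

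Hoxb6, the most abundant Hox gene of IM, had 203, 254, 238, 308 and 254 TPM in IM libraries 1 to 5, 68.0, 63.5, 63.8, 59.0 and 65.9 TPM in OM and 32.3, 43.9, 38.3, 42.9 and 40.2 TPM in cortex. All IM libraries lay above all OM libraries, and these above all cortex libraries. The log2 difference was 2.63 for IM minus cortex (SE 0.10, limma adjusted p = 9.71e-13; 1.94 after scaling) and 0.69 for OM minus cortex (adjusted p = 7.03e-05; 0.53 after scaling, adjusted p = 0.000327). Hoxb7, whose regulatory sequence marks the collecting duct lineage, averaged 129 ± 14.6 TPM in IM, 46.6 ± 2.73 TPM in OM and 37.4 ± 2.56 TPM in cortex, a difference of 1.76 for IM minus cortex (limma adjusted p = 3.89e-12; 1.06 after scaling).

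Paralog group 11, known for its need in kidney induction, was uneven. Hoxa11 had 17.9, 21.4, 17.5, 20.6 and 22.6 TPM in IM libraries 1 to 5, 5.63, 4.20, 5.23, 4.73 and 5.49 TPM in OM and 1.93, 1.75, 1.94, 2.07 and 1.76 TPM in cortex. Hoxd11 had 7.95, 9.32, 8.06, 9.98 and 9.58 TPM in IM, 3.23, 2.21, 2.74, 2.505 and 2.93 TPM in OM and 0.964, 0.465, 0.562, 0.682 and 0.668 TPM in cortex. Both genes separated all 3 zones without overlap, with IM means 10.6-fold (Hoxa11) and 13.4-fold (Hoxd11) those of cortex. The log2 difference for IM minus cortex was 2.86 for Hoxa11 (SE 0.09, limma adjusted p = 1.15e-13; 2.27 after scaling) and 2.58 for Hoxd11 (SE 0.10, adjusted p = 1.4e-12; 2.09 after scaling). The cortex values rested on 40 to 56 reads per library for Hoxa11 and 23 to 44 for Hoxd11, against 308 to 554 and 252 to 444 in IM. Hoxc11, below the filter, had its lowest mean in IM, from 3 to 7 reads per library there and 7 to 15 in cortex. In a fit without the filter its IM minus cortex difference was not called (limma adjusted p = 0.0609), while that of Hoxd1, from 4 to 13 reads per library in IM and 0 to 3 in cortex, was called higher (0.47, adjusted p = 0.000679), as were 58.6% of the 20759 genes in that fit. Exons of Hoxa11 overlap those of the antisense RNA Hoxa11os in GENCODE M21, and whether the counting used strand is not given in the sources used here. Hoxd11 exons overlap those of Gm28309 on the same strand, as do Hoxd10 exons, so reads there may be shared. The Hoxa11os row averaged 12.6 ± 1.64 TPM in IM, 4.43 ± 0.720 TPM in OM and 2.34 ± 0.282 TPM in cortex.

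Paralog group 4 was uneven too. Hoxd4, known in the hindbrain and neck vertebrae, had 106, 111, 109, 127 and 102 TPM in IM libraries 1 to 5, 29.5, 22.6, 22.8, 24.04 and 20.8 TPM in OM and 20.7, 17.0, 17.3, 18.7 and 19.0 TPM in cortex. All IM libraries lay more than 3-fold above every other library. Every OM library lay above every cortex library, by the narrow margin of 20.8 against 20.7 TPM, and OM minus cortex was 0.35 (limma adjusted p = 0.00533; 0.19 after scaling, adjusted p = 0.0739). The difference was 2.52 for IM minus cortex (SE 0.09, limma adjusted p = 4e-13; 1.83 after scaling). Hoxb4, studied mostly in blood stem cells, averaged 105 ± 12.3 TPM in IM, 28.5 ± 5.56 TPM in OM and 20.2 ± 2.25 TPM in cortex (difference 2.31 for IM minus cortex; 1.63 after scaling, adjusted p = 1.41e-09). Hoxc4, at 8.53 ± 1.27 TPM in IM, 5.03 ± 0.632 TPM in OM and 4.55 ± 0.817 TPM in cortex, and Hoxa4, at 3.79 ± 0.582, 2.24 ± 0.243 and 1.80 ± 0.307 TPM in the same order, differed by 0.78 and 0.77 for IM minus cortex. After scaling Hoxa4 was called (0.26, limma adjusted p = 0.0193) and Hoxc4 was not (0.18, adjusted p = 0.157).

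**Figure D4:**
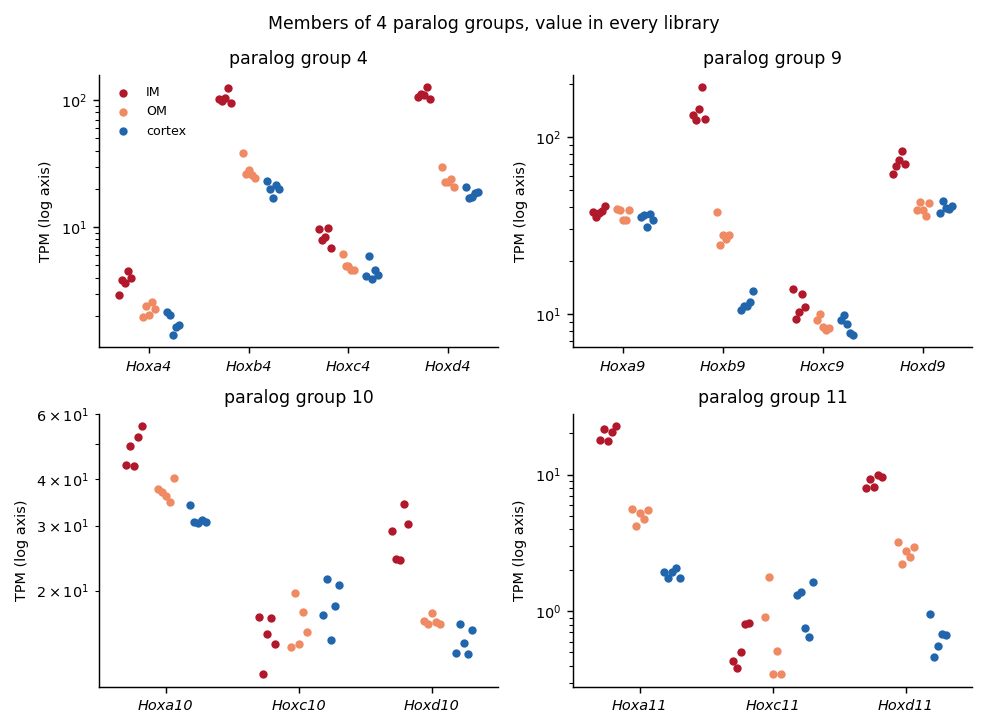
TPM in every library (points) of the members of paralog groups 4, 9, 10 and 11, by zone, on log axes. Hoxa11, Hoxd11 and Hoxb9 separate all 3 zones, whereas the Hoxa9 points of the zones overlap, at means of 37.9, 36.8 and 34.7 TPM in IM, OM and cortex.

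Hoxa7 and Hoxa10, the most abundant Hoxa genes of IM and OM, showed small differences whose sign turned with the scale. Hoxa7 had 46.0, 50.5, 55.7, 53.5 and 51.2 TPM in IM libraries 1 to 5, 34.6, 41.6, 43.3, 41.4 and 46.5 TPM in OM and 32.0, 34.9, 36.5, 37.7 and 35.2 TPM in cortex. Hoxa10, known for its part in the uterus and the posterior body, had 43.6, 49.4, 43.6, 52.1 and 55.7 TPM in IM, 37.8, 36.9, 36.1, 34.8 and 40.3 TPM in OM and 34.0, 30.6, 30.5, 31.1 and 30.7 TPM in cortex. IM lay above cortex without overlap for both genes, and Hoxa10 also lay higher in every OM library than in any cortex library. For IM minus cortex, Hoxa7 differed by 0.53 (limma adjusted p = 4.87e-06) and by -0.16 after scaling (adjusted p = 0.0478). Hoxa10 differed by 0.62 (limma adjusted p = 3.09e-07) and by -0.07 after scaling (adjusted p = 0.362). Hoxa9, a gene of blood progenitors that stands between them in the cluster, averaged 37.9 ± 1.93 TPM in IM, 36.8 ± 2.59 TPM in OM and 34.7 ± 2.22 TPM in cortex. Its difference was 0.12 for IM minus cortex (limma adjusted p = 0.0623), and -0.56 after scaling (adjusted p = 1.14e-06). Hoxa9 exons overlap Mir196b on the same strand. Hoxa5 and Hoxa6, further forward in the cluster, averaged 34.2 and 23.2 TPM in IM, 16.2 and 8.29 TPM in OM, and 10.8 and 6.31 TPM in cortex, with differences of 1.58 and 1.71 for IM minus cortex that were called on both scales.

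Hoxd8, the most abundant Hox gene of OM and cortex, had 113, 97.3, 113, 137 and 94.8 TPM in IM libraries 1 to 5, 72.9, 86.2, 85.3, 77.0 and 72.7 TPM in OM and 82.9, 89.2, 88.8, 94.1 and 97.0 TPM in cortex. IM and cortex overlapped, as did OM and cortex. For IM minus cortex the difference was 0.28 (SE 0.09, limma adjusted p = 0.0076), and -0.41 after scaling (adjusted p = 0.000178). It was 0.08 in voom on the recovered reads (adjusted p = 0.351), so neither the direction nor the call held across these settings.

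Hoxc6 and Hoxc10, the most abundant Hoxc genes, moved in opposite ways. Hoxc6 had 39.3, 25.9, 28.7, 43.7 and 31.8 TPM in IM libraries 1 to 5, 26.8, 19.3, 17.3, 18.2 and 17.9 TPM in OM and 17.6, 18.1, 12.5, 14.3 and 15.3 TPM in cortex. IM lay above cortex without overlap, while IM library 2 lay below OM library 1. The difference for IM minus cortex was 1.06 (SE 0.15, limma adjusted p = 5.61e-06; 0.39 after scaling, adjusted p = 0.0261). Hoxc10, a gene of the hindlimb and lumbar spinal cord, had 17.0, 11.9, 15.2, 16.9 and 14.4 TPM in IM, 14.1, 19.7, 14.3, 17.5 and 15.5 TPM in OM and 17.2, 21.4, 14.7, 18.2 and 20.7 TPM in cortex. The zones overlapped, with the lowest value in IM library 2 and the highest in cortex library 2. The difference was -0.27 for IM minus cortex (SE 0.12, limma adjusted p = 0.0404) and -0.93 after scaling (adjusted p = 2.89e-06). Before scaling this call was lost when IM library 2, 3 or 5 or cortex library 2, 4 or 5 was left out (limma adjusted p = 0.0565 to 0.12) and without the filter on low values (adjusted p = 0.0514). It was also lost when the replicate number entered the fit as a block. Exons of Hoxc5 and Hoxc10 overlap on the same strand in GENCODE M21, and Hoxc5 averaged 3.65 ± 0.673 TPM in IM, 2.22 ± 0.438 TPM in OM and 1.79 ± 0.222 TPM in cortex.

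The other tested members filled in the range within their clusters. In Hoxb, Hoxb5 averaged 57.7 ± 6.30 TPM in IM, 16.5 ± 2.11 TPM in OM and 7.95 ± 1.03 TPM in cortex (difference 2.71 for IM minus cortex; 2.05 after scaling). Hoxb2 at 60.3 ± 6.92 TPM in IM, 27.1 ± 4.89 TPM in OM and 20.5 ± 1.79 TPM in cortex, and Hoxb3 at 66.0 ± 5.38, 35.8 ± 2.15 and 33.0 ± 1.53 TPM in the same order, differed by 1.51 and 0.98. These Hoxb genes were called on both scales. Their exons overlap antisense RNAs in GENCODE M21, Hoxb5os for Hoxb5 and Hoxb3os for Hoxb2 and Hoxb3, so their reads may be shared. In Hoxd, Hoxd9 averaged 71.5 ± 8.09 TPM in IM, 39.7 ± 2.96 TPM in OM and 40.0 ± 2.27 TPM in cortex, and its difference of 0.82 for IM minus cortex was 0.13 after scaling (limma adjusted p = 0.0909). Hoxd10 averaged 28.5 ± 4.30 TPM in IM, 16.6 ± 0.471 TPM in OM and 14.7 ± 1.23 TPM in cortex, and its difference of 0.90 was 0.23 after scaling (limma adjusted p = 0.0189). At the low-number end of Hoxa, the genes Hoxa2 and Hoxa3, of the hindbrain and pharyngeal arches, differed by 0.43 and 0.48 for IM minus cortex, and by -0.09 and -0.16 after scaling, where neither was called (limma adjusted p = 0.552 and 0.156). In Hoxc, Hoxc8 averaged 6.41 ± 1.40 TPM in IM, 4.30 ± 1.20 TPM in OM and 3.62 ± 1.22 TPM in cortex, and Hoxc9 11.5 ± 1.86, 8.80 ± 0.768 and 8.65 ± 0.976 TPM in the same order. Their differences of 0.69 and 0.36 for IM minus cortex became 0.12 (limma adjusted p = 0.585) and -0.28 (adjusted p = 0.0217) after scaling.

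The medulla was compared in 2 steps, IM against OM and OM against cortex, which share the OM libraries. In IM against OM, 27 of the 30 tested members were higher, 0 lower and 3 not called (Hoxa2, Hoxa9 and Hoxc10), against 66.4% of all genes tested higher and 17.2% lower. After scaling 16 were higher and 3 lower (Hoxa7, Hoxa9 and Hoxc10), against 38.1% and 36.3% of all genes. The 1 negative difference, that of Hoxc10 (-0.10), had an unadjusted p of 0.412, so 0 members were lower at an unadjusted p under 0.05 in limma, and voom on the recovered reads called Hoxc10 lower (adjusted p = 0.0452). The libraries of IM lay above those of OM without overlap for 22 of 39 members (22 of them tested), against 58.2% of genes tested and 37.8% of all rows. They lay below for 0 members, against 13.2% of genes tested and 8.52% of all rows. In OM against cortex, 14 of the 30 tested members were higher and 0 lower, against 28.3% of all genes tested higher and 6.3% lower. After scaling 7 were higher (Hoxa5, Hoxa11, Hoxb4, Hoxb5, Hoxb6, Hoxb9 and Hoxd11) and 2 lower (Hoxc10 and Hoxd8), against 16.2% and 17.8% of all genes. Hoxd8 alone had a negative difference with an unadjusted p under 0.05 in the unscaled fit (0.0412), and voom called it lower (adjusted p = 0.0357). The libraries of OM lay above those of cortex for 13 of 39 members (13 of them tested), against 23.4% of genes tested and 14.9% of all rows. They lay below for 0 members, against 5.29% of genes tested and 3.34% of all rows. In Hoxc, 0 genes were called between OM and cortex before scaling, and Hoxc6 (0.33, limma adjusted p = 0.0991, unadjusted p = 0.0421) had the smallest p.

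By cluster, IM against OM gave 8 of 8 tested Hoxb genes higher on both scales. Hoxd gave 6 of 6 higher (5 after scaling, with 0 lower), Hoxa 8 of 10 (3 higher and 2 lower after scaling) and Hoxc 5 of 6 (0 higher and 1 lower after scaling). OM against cortex gave 7 higher Hoxb genes (4 after scaling), 5 Hoxa genes (2 after scaling) and 2 Hoxd genes (1 higher and 1 lower after scaling).

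The 2 steps were then set against each other by the contrast (IM minus OM) minus (OM minus cortex), a test chosen after seeing the data. It was above 0 for 17 of the 30 tested members and below 0 for 0, against 50.6% of all genes tested above 0 and 2256 of the 15052 genes below it. After scaling it was above 0 for 10 (Hoxa6, Hoxb3, Hoxb4, Hoxb6, Hoxb7, Hoxb8, Hoxb9, Hoxd3, Hoxd4 and Hoxd9) and below 0 for 1 (Hoxa9), against 27.0% and 26.4% of all genes. Before scaling, the 2 members with a negative contrast had unadjusted p-values of 0.922 (Hoxa2) and 0.668 (Hoxa9) in limma, so 0 were below 0 at an unadjusted p under 0.05, and voom also gave 0.

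Hoxd3 and Hoxd4 had the largest contrast. Hoxd3 had 51.3, 59.4, 59.0, 61.4 and 44.2 TPM in IM libraries 1 to 5, 16.2, 14.4, 11.8, 12.1 and 10.9 TPM in OM and 13.8, 13.8, 11.05, 12.2 and 13.4 TPM in cortex. Its IM libraries stood apart and its OM and cortex libraries overlapped, with differences of 2.00 for IM minus OM (limma adjusted p = 1.4e-10) and 0.01 for OM minus cortex (adjusted p = 0.934). The contrast of the steps was 1.98 for Hoxd3 (limma adjusted p = 8.44e-07; 1.61 after scaling) and 1.83 for Hoxd4 (adjusted p = 2.16e-07; 1.45 after scaling). Exons of these genes overlap on the same strand, so reads in the shared part cannot be told apart, and they do not count as independent cases. Hoxd11, at the other end of the cluster, differed by 1.42 for IM minus OM and by 1.16 for OM minus cortex, and its contrast was not called (0.26, limma adjusted p = 0.189; -0.17 after scaling, adjusted p = 0.431). All its cortex values lay below the 1 that is added to TPM before the log, which shrinks the OM minus cortex step. By ratio of means that step was the larger, at 4.08-fold for OM over cortex and 3.30-fold for IM over OM. For Hoxa11 the contrast was 0.73 (limma adjusted p = 0.000559), and 0.32 after scaling (adjusted p = 0.0786). In Hoxb, Hoxb5 and Hoxb9 had differences of 0.96 and 1.24 for OM minus cortex, whereas Hoxb3 differed by 0.11 (limma adjusted p = 0.159).

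**Figure D5:**
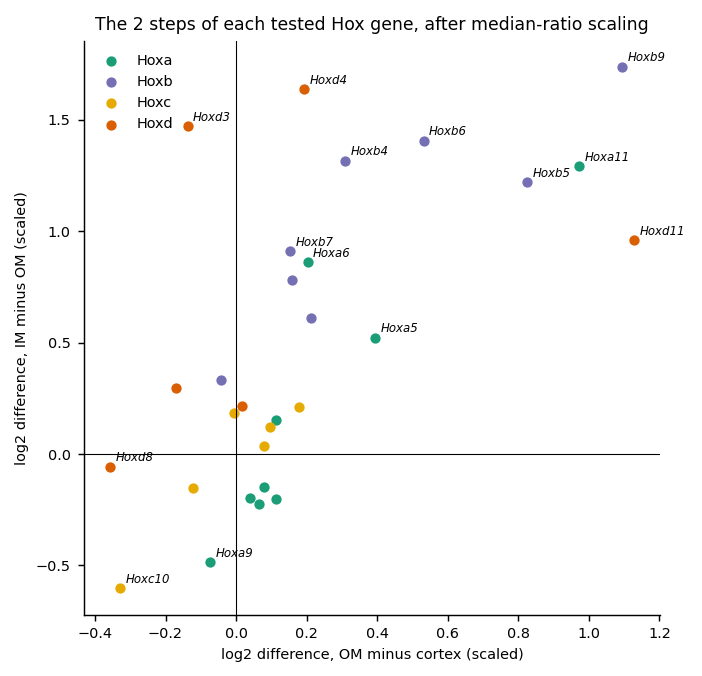
The tested Hox genes reported by name, by their OM minus cortex difference (horizontal axis) and IM minus OM difference (vertical axis), both in log2(scaled TPM + 1) after median-ratio scaling, coloured by cluster; the axes share the OM libraries. Hoxd3 and Hoxd4 lie near 0 on the horizontal axis (-0.14 and 0.19) and high on the vertical axis (1.47 and 1.64), whereas Hoxd11 has 1.13 and 0.96.

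The microRNA rows whose sequences are printed above followed different patterns in the 2 pairs. Mir10a averaged 89.9 ± 7.48 TPM in IM, 30.4 ± 4.74 TPM in OM and 21.1 ± 8.25 TPM in cortex (difference 2.11 for IM minus cortex, limma adjusted p = 3.31e-08; 1.42 after scaling). Mir10b had 41.0, 36.4, 55.9, 69.7 and 46.0 TPM in IM libraries 1 to 5, 5.41, 1.49, 1.57, 0 and 1.55 TPM in OM and 2.71, 0, 0, 1.24 and 0 TPM in cortex (difference 5.02 for IM minus cortex, adjusted p = 6.45e-08; 4.53 after scaling). Its IM libraries stood far above all others, as did those of Hoxd3 and Hoxd4 around it. Mir196a-1 averaged 250 ± 50.9 TPM in IM, 98.6 ± 11.8 TPM in OM and 44.1 ± 3.58 TPM in cortex (difference 2.45 for IM minus cortex, limma adjusted p = 3.75e-11; 1.76 after scaling). Mir196b went the other way, with 59.4, 62.4, 47.4, 40.9 and 66.0 TPM in IM, 70.3, 106, 109, 96.6 and 91.8 TPM in OM and 78.1, 100.1, 87.0, 119 and 111 TPM in cortex. All its IM libraries lay below all OM and cortex libraries (difference -0.84 for IM minus cortex, limma adjusted p = 9.89e-05; -1.53 after scaling). The miR-196 family is known to direct cleavage of the Hoxb8 transcript, and Hoxb8 averaged 104 ± 6.90 TPM in IM, 41.2 ± 2.93 TPM in OM and 32.9 ± 2.45 TPM in cortex. Such short rows can collect reads of the transcripts around them, so these values are not levels of mature microRNA. Of the 17 non-coding and neighbouring rows listed, 12 were tested and 9 were higher and 1 lower (Mir196b) in IM than in cortex, with 6 higher and 1 lower after scaling. Over all genes tested 70.2% were higher and 16.0% lower (40.0% and 38.6% after scaling), so the count of rows that were higher lies near the background.

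A list of 11 TALE class genes, which also takes in genes outside the PBX, MEIS and PKNOX families, was tested in full. In IM against cortex 10 were higher and 0 lower, with 8 higher and 1 lower (Pbx2) after scaling. The shares over all genes tested were 70.2% higher and 16.0% lower, and 40.0% and 38.6% after scaling. Pbx2 was the most abundant, at 44.8 ± 4.17 TPM in IM, 33.1 ± 1.02 TPM in OM and 31.9 ± 2.49 TPM in cortex (difference 0.48, and -0.21 after scaling, limma adjusted p = 0.00757). Meis2, which helps Hox proteins to bind DNA, averaged 21.3 ± 1.92 TPM in IM, 7.38 ± 0.977 TPM in OM and 4.17 ± 0.404 TPM in cortex (difference 2.11, limma adjusted p = 3.3e-12; 1.48 after scaling). Between OM and cortex 8 of the 11 were higher, on either scale, against 28.3% of all genes tested (16.2% after scaling). Of 22 listed chromatin and upstream regulators of the clusters, 19 were tested. In IM against cortex 16 were higher and 1 lower before scaling, and 11 higher and 3 lower after it, to be read against the same all-gene shares of 70.2% and 40.0% higher. The histone methyltransferase gene Ezh1, given because it had the highest mean of this list, averaged 99.8 ± 10.4 TPM in IM, 36.5 ± 1.75 TPM in OM and 34.9 ± 0.439 TPM in cortex (difference 1.48; 0.79 after scaling). It does not stand for the other genes of the list, which went both ways after scaling. The Polycomb gene Cbx2 was the 1 that was lower before scaling, and was among the 3 lower after it. It averaged 4.57 ± 0.447 TPM in IM, 5.97 ± 0.765 TPM in OM and 6.64 ± 0.795 TPM in cortex (difference -0.45, limma adjusted p = 0.00027; -1.04 after scaling). The caudal genes Cdx1, Cdx2 and Cdx4, which act on the clusters in the embryo, averaged 0.225 TPM or less in every zone.

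Of 10 listed genes of kidney development, among them partners and targets of paralog group 11, 5 were tested. Of these, 4 were higher and 1 lower in IM than in cortex on either scale. With 5 genes, and 70.2% of all genes tested higher before scaling (40.0% after it), this count says little of the list. Pax2 averaged 260 ± 70.1 TPM in IM, 25.2 ± 1.95 TPM in OM and 17.1 ± 1.70 TPM in cortex (difference 3.81, limma adjusted p = 2.04e-12; 3.12 after scaling). Itga8, an integrin of the embryonic kidney mesenchyme, averaged 14.04 ± 1.78 TPM in IM, 6.52 ± 0.421 TPM in OM and 3.06 ± 0.514 TPM in cortex (difference 1.89, limma adjusted p = 3.15e-11; 1.28 after scaling). Osr1 was the lower one, at 0.619 ± 0.0991 TPM in IM, 1.18 ± 0.232 TPM in OM and 1.27 ± 0.194 TPM in cortex (difference -0.49, limma adjusted p = 0.00013). Its IM libraries all lay below 1 TPM (0.483 to 0.744 TPM), so it passed the filter through OM and cortex alone. Ret, counted among the higher genes, passed it through IM alone. The embryonic progenitor genes Eya1, Six2 and Gdnf averaged 0.263 TPM or less in every zone and were not tested.

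Marker sums of cell types differed between the zones, and some of them, though not all, moved with the Hox values. The sum of 4 collecting duct principal cell markers (Aqp2, Aqp3, Avpr2 and Fxyd4) was 7983 to 12912 TPM in IM, 736 to 1090 TPM in OM and 391 to 530 TPM in cortex. All 4 were higher in IM than in cortex on both scales. The sum of 4 thin limb markers was 4542 to 7799 TPM in IM, 402 to 654 TPM in OM and 54.9 to 114 TPM in cortex, and again all 4 were higher on both scales. The sum of 4 endothelial markers was 1204 to 1659 TPM in IM, 273 to 337 TPM in OM and 153 to 176 TPM in cortex, with 4 higher before scaling and 3 higher and 1 lower after it. The sum of 6 fibroblast markers was 134 to 192 TPM in IM, 83.1 to 118 TPM in OM and 44.9 to 48.3 TPM in cortex, with 5 higher before scaling and 3 after it. The sum of 6 urothelial markers was 188 to 307 TPM in IM, 11.5 to 49.4 TPM in OM and 1.45 to 7.33 TPM in cortex, all 6 higher in IM on both scales. Markers of the proximal tubule (4 genes) went the other way, at 510 to 949 TPM in IM, 2999 to 4240 TPM in OM and 5938 to 7287 TPM in cortex, with all 4 lower in IM on both scales. The sum of 3 distal convoluted tubule markers was 38.4 to 55.0 TPM in IM, 315 to 661 TPM in OM and 795 to 1216 TPM in cortex. All 3 were lower in IM than in cortex on both scales. Intercalated cell markers (4 genes) summed to 98.8 to 169 TPM in IM, 101 to 140 TPM in OM and 192 to 244 TPM in cortex. Of these, 1 was higher and 3 lower in IM than in cortex on both scales. The sum of 3 thick ascending limb markers was 2459 to 5036 TPM in IM, 2692 to 5423 TPM in OM and 1114 to 1461 TPM in cortex, all 3 higher in IM than in cortex on both scales. The IM and OM sums overlapped. In IM against OM 1 of the 3 was higher and 0 lower before scaling, and 1 was higher and 2 lower after it. The sum of 4 podocyte markers, cells found in cortex, was 67.2 to 84.9 TPM in IM, 75.9 to 100.4 TPM in OM and 76.2 to 99.9 TPM in cortex, so the sums of the zones overlapped. In IM against cortex 1 of the 4 was higher and 2 lower before scaling, and all 4 were lower after it. Of 3 markers each, 0 smooth muscle, adipocyte or erythroid markers were called in IM against cortex before scaling. After it, 1 smooth muscle marker was lower. Leukocyte markers gave 1 higher and 1 lower on both scales. No listed marker was at 0 in all libraries. The part of cell make-up in the Hox differences was not tested. How much tissue of a neighbouring zone the dissected pieces held, the IM pieces included, was not tested either.

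Some libraries stood apart within their zone in Hox and marker values together. IM library 4 was the highest of its zone for 18 of the 30 tested members (12 after scaling). It was also highest for the sums of the principal cell, intercalated cell, podocyte, urothelial, fibroblast and adipocyte markers. Its adipocyte sum was 62.4 TPM, against 2.92 to 11.9 TPM in the other IM libraries. OM library 1 was the highest for 17 members on either scale, and for the principal cell, thin limb, podocyte, urothelial, endothelial, fibroblast and smooth muscle sums. It had 49.4 TPM of urothelial markers against 11.5 to 19.2 TPM in the other OM libraries. Cortex library 2 was the highest of its zone for 13 members and cortex library 3 the lowest for 12. The former was also highest for the podocyte, distal convoluted tubule, fibroblast and adipocyte sums. Its adipocyte sum was 48.5 TPM, against 1.98 to 16.1 TPM in the other cortex libraries. Cortex library 1 had the highest urothelial sum of its zone (7.33 TPM, against 1.45 to 4.53 TPM). Leaving out IM library 4, OM library 1 and cortex library 1 together, a set chosen after seeing the data, gave 28 members higher and 1 lower in IM than in cortex, 28 higher and 0 lower in IM than in OM, and 14 higher and 1 lower (Hoxd8, adjusted p = 0.0452) in OM than in cortex.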

How the data were processed

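Paired-end Illumina reads of total RNA from 3 mouse kidney zones, 5 libraries each, underlie the values, per the labels' protocols. What the authors deposited is a table of TPM values. The submitters' processing notes name STAR and mm9. How reads were counted, with which annotation and strand, is not given in the sources used here. In GENCODE M21, 16 of the 39 members overlap exons of another gene, 9 on the same strand and 10 on the opposite one, so their reads may be shared.

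The filter kept the 15052 genes that reached 1 TPM in 5 or more libraries, log2(TPM + 1) was taken, and limma 3.58.1 (R 4.3.3, statmod 1.5.0) fitted all libraries with zone as the only factor, trend and robust settings, and Benjamini-Hochberg adjustment over all genes tested. The scripts were tested on simulated data. TPM does not state depth, but TPM steps between libraries gave whole reads (within 0.001) for 100% of 19997 genes above 0 in at least 2 libraries, which leaves 762 out. A gene listed at 0 may lie below what 3 reads would show.

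Alternatives were median-ratio scaling, a pseudocount of 0.1, no filter, a replicate block, fits of 2 zones only, voom on the recovered reads, each library left out, and 3 libraries left out together. The last, and the contrast of the 2 steps, were chosen after seeing the data. The members and lists were chosen with earlier results of these data known. Values in every library are given for the 2 members of each cluster with the highest mean in any zone, the largest called rise and fall per comparison and any member called against the majority of its cluster (Hoxa7, Hoxa10, Hoxa11, Hoxb6, Hoxb9, Hoxc6, Hoxc10, Hoxd4, Hoxd8 and Hoxd11), and also for Hoxd3, Mir10b and Mir196b, picked after their values were seen. Sequences come from RefSeq tables of GRCm38.p6. No coordinates were taken from the deposited table. A member and another listed gene enter the counts and are not reported here by name.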

Additional observations from a re-analysis of the deposited data

Results flagged for a closer look

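Within a zone, 12 of 108 groups of 5 libraries had a library whose gap to the nearest other exceeded Dixon's limit for 95%, and chance flags about 1 in 20 groups. OM library 1 stood above the other OM libraries for 5 genes. It had 38.1 TPM of Hoxb4 (others 24.2 to 28.0), 20.1 TPM of Hoxb5 (14.8 to 16.2), 37.8 TPM of Hoxb9 (24.4 to 28.0), 6.12 TPM of Hoxc4 (4.57 to 4.95) and 26.8 TPM of Hoxc6 (17.3 to 19.3). IM library 4 had 192 TPM of Hoxb9 (125 to 143). OM library 3 had 17.4 TPM of Hoxd10 (16.2 to 16.6). Cortex library 1 had 34.0 TPM of Hoxa10 (30.5 to 31.1) and cortex library 2 had 5.78 TPM of Hoxc8 (2.76 to 3.21). The other flags rest on a few reads: 0.0434 TPM of Hoxc13 in OM library 5 (others 0), 0.397 TPM of Hoxd1 in OM library 5 (0 to 0.0988) and 0.149 TPM of Hoxd1 in cortex library 1 (others 0).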

How the results depend on the processing

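Median-ratio scaling changed the most. It gave 17 members higher and 5 lower for IM minus cortex (28 and 1 before), 16 and 3 for IM minus OM (27 and 0), 7 and 2 for OM minus cortex (14 and 0), and 10 and 1 for the contrast of the steps (17 and 0). It reversed Hoxa7 (-0.16 for IM minus cortex, -0.22 for IM minus OM), Hoxa10 (-0.068 and -0.15) and Hoxd8 (-0.41 and -0.056), since it removes the shift of the typical gene by construction. The count of lower members for IM minus cortex was 0 without the filter and 0 with the replicate block, where Hoxc10 was no longer called (limma adjusted p = 0.0518). For IM minus OM it was 1 in voom, and for OM minus cortex it was 1 in fits of 2 zones only, 1 in voom and 1 with 3 libraries left out; the cause was not tested. Leaving out each library in turn gave 28 to 29 members higher and 0 to 1 lower for IM minus cortex, 25 to 28 higher and 0 lower for IM minus OM, 11 to 14 higher and 0 to 1 lower for OM minus cortex (1 without IM library 4), and 15 to 18 above 0 and 0 below it for the contrast of the steps. Over all genes it gave 12416 to 13036, 11934 to 12572, 4452 to 5522 and 9228 to 9770 calls in the same order. The replicate block gave 28, 27 and 13 members higher. Deviations of same-numbered libraries correlated at -0.03 to 0.26 (median 0.10, 8 of 15 pairs over 0.1), those of different-numbered ones at a median of -0.03 (5 of 60 over 0.1). A library correlated best with its own number in 20 of 30 cases of a library and another zone. Each case was a choice among 5 libraries, so own numbers came out more often than a random choice would give. What the numbers stand for is not in the labels and was not tested. The main fit left them out, and the replicate block was an alternative. Depth limits the members below the filter, such as Hoxc11 at 3 to 16 reads per library.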

Other observations

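Hotair, a non-coding RNA of the Hoxc cluster, averaged 0.146 ± 0.0964 TPM in IM, 0.0725 ± 0.0498 TPM in OM and 0.0312 ± 0.0321 TPM in cortex, and Hottip, of the Hoxa cluster, was listed at 0 in every library. Ret, the receptor for the ureteric bud signal Gdnf, averaged 3.60 ± 1.21 TPM in IM, 0.105 ± 0.0376 TPM in OM and 0.0531 ± 0.0130 TPM in cortex (SD, n = 5 each). Its log2 difference was 2.08 for IM minus cortex (limma adjusted p = 1.72e-09, 1.75 after scaling). Ret reached 1 TPM in IM libraries alone (1.83 to 4.92 TPM, at most 0.152 TPM in OM or cortex). It thus passed the filter only through the zone where it was high, and its p-value adds no separate support. Gdnf averaged 0.0175 TPM in IM, 0.0488 TPM in OM and 0.0660 TPM in cortex, below the filter. The antisense row Hoxb5os averaged 114 ± 19.8 TPM in IM, 46.1 ± 8.96 TPM in OM and 53.7 ± 9.98 TPM in cortex, and Hoxb3os 152 ± 8.90, 99.1 ± 8.15 and 90.6 ± 6.28 TPM in the same order. Between OM and cortex neither was called (limma adjusted p = 0.296 and 0.15).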
